A study of Mus musculus with 7 samples.

Results

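Prostaglandins and leukotrienes, together called eicosanoids, are short-lived lipid signals made from arachidonic acid, a fatty acid that phospholipases release from cell membranes. Cyclooxygenases turn it into a common prostaglandin precursor that terminal synthases convert into the separate prostaglandins, whereas lipoxygenases lead to the leukotrienes and related lipids. In healing tendon and joint these lipids are known for their part in pain, swelling, blood flow and the recruitment of leukocytes. The 10 eicosanoid enzyme genes described here were chosen by symbol: Ptgs1, Ptgs2, Ptges, Ptgis, Ptgds, Alox5, Alox5ap, Alox15, Hpgd and Ltc4s. All 10 were found among the 56854 gene identifiers listed for every library.

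RNA was sequenced from whole shoulder joints, with 7 mice giving 1 library each. In every mouse the left supraspinatus tendon, part of the rotator cuff around the shoulder, had been surgically repaired 2 weeks earlier. There were 3 wild-type mice and 4 Tnc-/- mice, in which the gene for Tenascin C, a glycoprotein of the extracellular matrix, was targeted. The type of Tnc allele, the strain and the age are not given in the sources used here, and joints without repair were not analysed here. A whole joint holds tendon, muscle, cartilage, bone with marrow, synovium, vessels and fat, so fewer cells of a type and less RNA per cell cannot be told apart in any value.

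Levels are given in CPM, the count of a gene relative to its library size, scaled by the trimmed mean of M-values (TMM). Gene counts ran from 13464057 to 18503833 per library in wild type and from 19250322 to 28191101 in Tnc-/-. The check of the targeted gene, Tnc, gave 352 ± 75.5 CPM (SD, n = 3) for wild type against 41.8 ± 9.26 CPM (SD, n = 4) for Tnc-/-. Reads of Tnc thus remained in every Tnc-/- library, at 33.4, 38.9, 39.9 and 55.0 CPM, and the protein was not measured here. Markers of muscle (Acta1, Ckm), cartilage (Col2a1, Acan), bone (Bglap, Ibsp), tendon (Tnmd) and fat (Adipoq) were present in every library, while the tendon factor Scx was listed at 0 in all 7. Wild-type libraries 2 and 3 stood apart: the 2010 odorant and vomeronasal receptor genes, which joint tissue is not known to use, summed to 1564 and 1112 CPM there. The sum was 89.8 CPM in wild-type library 1 and 33.3 to 41.5 CPM in Tnc-/-. Unlike the other levels, these receptor sums are relative to the library totals, without TMM scaling. The files of the genotypes also list different identifiers (126 only in wild type, 87 only in Tnc-/-), so an effect of how each genotype was counted and an effect of the genotype cannot be told apart.

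Promoters are shown for the cyclooxygenase pair, of which Ptgs1 passed the test of the genotype difference and Ptgs2 did not, and for Alox5, the other gene whose genotype groups did not overlap. The RefSeq promoter table (GRCm38.p6) held 7 of the 10 genes. Each sequence runs 5′ to 3′ on the strand of the gene, from 120 bases before to 30 bases after the annotated start, and capitals mark matches to the motifs searched. The counts were made on another build (GRCm39), so these positions apply to GRCm38.p6 alone.
Ptgs1, chr2:36230306-36230455, plus strand: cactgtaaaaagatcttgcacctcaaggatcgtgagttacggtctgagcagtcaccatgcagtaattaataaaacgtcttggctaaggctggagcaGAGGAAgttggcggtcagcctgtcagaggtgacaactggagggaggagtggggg
Ptgs2, chr1:150099911-150100060, plus strand: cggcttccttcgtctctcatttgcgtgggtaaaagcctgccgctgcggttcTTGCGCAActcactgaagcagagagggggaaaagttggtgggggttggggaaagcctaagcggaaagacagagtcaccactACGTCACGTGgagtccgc
Alox5, chr6:116461149-116461298, minus strand: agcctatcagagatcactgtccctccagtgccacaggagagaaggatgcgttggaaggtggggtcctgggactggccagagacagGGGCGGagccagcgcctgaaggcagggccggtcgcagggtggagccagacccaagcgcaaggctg

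The promoters of the cyclooxygenase pair shared none of the 6 motifs, which were searched on both strands as exact strings. The Ptgs2 window held the C/EBP palindrome TTGCGCAA, present in 0.0974% of the 32851 promoter windows of the same length. Further 3′, at bases 13 to 18 after the annotated start, it held a cyclic AMP response half-site (TGACGT, here on the minus strand as ACGTCA, 5.35% of windows). This half-site overlaps an E-box (CACGTG, 4.47%) at bases 17 to 22 after that start. The Ptgs1 window held GAGGAA (14.8% of windows), a longer string than the ETS core GGAA. The shorter GGAA, which was not searched, can be read in the Ptgs2 and Alox5 windows too. The Alox5 window held the GC box GGGCGG (29.1%). The TATA box TATAAA (7.16%) was in none of the 3 windows, which cover the annotated starts only. These matches describe letters in the windows and say nothing of whether a factor binds there.

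The first comparison asked whether the genes of prostaglandin and leukotriene synthesis differed by genotype in the repaired joint. Of the 10 genes, 9 passed the filter on low counts, and 1 of these, Ptgs1, had an adjusted p under 0.05 (edgeR's quasi-likelihood test, adjusted over 17791 genes), being higher in Tnc-/-. Over all genes tested 29.0% were called, 10.3% as higher and 18.7% as lower, so a count of 1 in 9 is no larger a share than the background. At an unadjusted p under 0.05 there were 2 of 9, Ptgs1 and Alox5, against 42.3% of all genes. The same 2 genes had every Tnc-/- library above every wild-type library, against 17.7% of all genes. The median log2 fold change of the 9 genes was 0.018, beside -9.0e-04 over all genes. With library totals as scaling, which moved the median of all genes by -0.24 and the share of lower calls from 64.5 to 82.7%, none of the 9 was called (edgeR; 1 had an unadjusted p under 0.05). DESeq2 called Ptgs1 alone and limma voom called 0, each with 2 genes at an unadjusted p under 0.05.

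**Figure D1:**
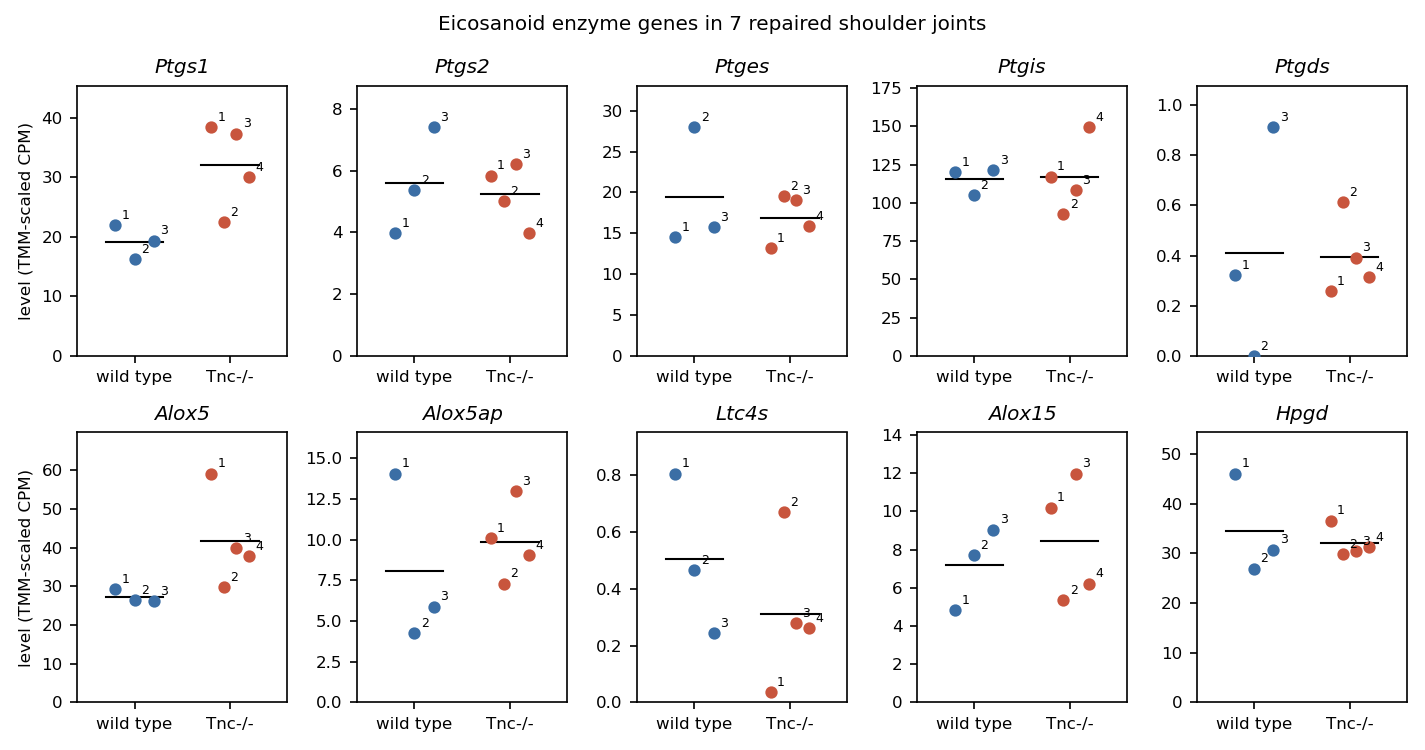
Level of each of the 10 enzyme genes (y axis, TMM-scaled CPM, from 0) in the 3 wild-type (blue) and 4 Tnc-/- (red) libraries; points are libraries with their replicate number and black lines are group means. Ptgs1 and Alox5 are the 2 tested genes whose groups do not overlap, and the Tnc-/- library nearest to wild type is library 2 in each.

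Ptgs1 encodes cyclooxygenase-1, the constitutive enzyme that supplies prostaglandin precursor in platelets and many resting tissues. Wild-type libraries 1 to 3 had 21.95, 16.2 and 19.4 CPM, and Tnc-/- libraries 1 to 4 had 38.4, 22.45, 37.3 and 30.02 CPM. The groups did not overlap, but Tnc-/- library 2 exceeded wild-type library 1 by little. The mean rose from 19.2 ± 2.87 (SD, n = 3) to 32.1 ± 7.41 CPM (SD, n = 4). In edgeR this was 0.74 on the log2 scale (SE 0.22, 95% interval 0.24 to 1.24, adjusted p = 0.0361). The call was lost without wild-type library 2 or 3 or without Tnc-/- library 1, 3 or 4, with log2 fold changes of 0.62 to 0.77 and edgeR adjusted p of 0.0742 to 0.111. With both wild-type libraries 2 and 3 left out the log2 fold change was 0.54 (edgeR, adjusted p = 0.241).

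Ptgs2 encodes cyclooxygenase-2, the form that cytokines and growth factors induce and that many anti-inflammatory drugs block. It was at 3.97, 5.38 and 7.41 CPM in wild type and at 5.84, 5.01, 6.21 and 3.975 CPM in Tnc-/-, ranges that overlapped almost fully. The log2 fold change was -0.086 (SE 0.39, 95% interval -0.96 to 0.79; edgeR, adjusted p = 0.887), an interval that leaves room for a change of either sign. Per exon length, Ptgs1 was above Ptgs2 in every library, by 3.08 to 6.52 times in wild type and by 5.28 to 8.91 times in Tnc-/-, and these ratios overlapped between the genotypes. Whether the fold changes of the cyclooxygenase genes differ from each other was not tested.

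The terminal synthases came next. Ptgis encodes prostacyclin synthase, an enzyme of vessel walls and fibroblasts whose product relaxes vessels and restrains platelets. As counted, it was the most abundant of the 10 genes per exon length. Its level was 120, 105 and 121 CPM in wild type and 117, 92.7, 108 and 149.5 CPM in Tnc-/-. The groups overlapped, with a log2 fold change of 0.018 (SE 0.17, 95% interval -0.37 to 0.41; edgeR, adjusted p = 0.948). Ptges encodes the inducible microsomal prostaglandin E synthase, which is often coupled to cyclooxygenase-2. Its level was 14.5, 28.0 and 15.8 CPM in wild type and 13.2, 19.5, 19.1 and 15.85 CPM in Tnc-/-. Wild-type library 2 was the high value; the log2 fold change of Ptges was -0.20 (SE 0.27, 95% interval -0.82 to 0.42; edgeR, adjusted p = 0.612) and turned to 0.16 without that library.

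Ptgds, the lipocalin-type prostaglandin D synthase, was nearly without reads and was the 1 gene of the 10 that did not pass the filter. It had 6, 0 and 15 counts in wild type and 7, 11, 7 and 6 counts in Tnc-/-, at most 0.911 CPM. The count of 0 in wild-type library 2 allows a level of up to 0.199 CPM (3 counts; counting error only). In the GENCODE M21 annotation 0% of its exon bases lie under another gene. The annotation used for the counts, and how reads shared between features were treated, are not given in the sources used here. Why the counts of Ptgds are low was not tested, so they are not read as low expression, and no difference was detectable.

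The leukotriene branch starts with Alox5, the lipoxygenase that opens leukotriene synthesis in neutrophils, macrophages and mast cells. It was at 29.25, 26.45 and 26.2 CPM in wild type and at 59.1, 29.75, 39.9 and 37.8 CPM in Tnc-/-. The wild-type values were close together and the lowest Tnc-/- value, in library 2, was just above them. The means were 27.3 ± 1.70 (SD, n = 3) and 41.6 ± 12.4 CPM (SD, n = 4), with a log2 fold change of 0.61 (SE 0.23, 95% interval 0.098 to 1.12) that missed the threshold (edgeR, adjusted p = 0.0716). It passed without wild-type library 1 (0.76, edgeR adjusted p = 0.0114) or without Tnc-/- library 2 (0.74, adjusted p = 0.0494).

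Alox5ap encodes the membrane protein that presents arachidonic acid to the Alox5 enzyme. It was at 14.1, 4.25 and 5.89 CPM in wild type and at 10.1, 7.30, 13.0 and 9.05 CPM in Tnc-/-. Wild-type library 1 was above all Tnc-/- libraries and wild-type libraries 2 and 3 were below all of them. The log2 fold change was 0.29 (SE 0.44, 95% interval -0.72 to 1.29; edgeR, adjusted p = 0.657). Without wild-type library 1 it was 1.05 (adjusted p = 0.0126), and without libraries 2 and 3 it was -0.52 (edgeR, adjusted p = 0.293), so the wild-type libraries in the fit set its direction. Per exon length, Alox5 was at 0.719 times the level of Alox5ap in wild-type library 1 and at 1.54 to 2.15 times in the other two; the ratio was 1.06 to 2.02 in Tnc-/-.

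Ltc4s, which joins glutathione to the leukotriene precursor to make the cysteinyl leukotrienes, had 15, 7 and 4 counts in wild type and 1, 12, 5 and 5 counts in Tnc-/-. It passed the filter at no more than 0.805 CPM, and its log2 fold change of -0.72 had a 95% interval of -2.84 to 1.40 (edgeR, adjusted p = 0.592). In the GENCODE M21 annotation 26.4% of its exon bases lie under an antisense gene, Gm26542, and the counting is not stated to use strand, so its counts are uncertain. The same holds, for smaller stretches, for Alox5ap (13.3% of exon bases under an antisense gene), Ptgis (6.08%) and Ptgs1 (3.81%). Alox15 makes hydroxy fatty acids and precursors of lipids that end inflammation, and in mouse is found in resident macrophages and eosinophils. It was at 4.83, 7.71 and 9.05 CPM in wild type and at 10.2, 5.35, 11.98 and 6.22 CPM in Tnc-/-, overlapping ranges with a log2 fold change of 0.23 (SE 0.40, 95% interval -0.68 to 1.15; edgeR, adjusted p = 0.696).

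Hpgd encodes the dehydrogenase that inactivates prostaglandins after their uptake into cells. It was at 46.05, 26.9 and 30.7 CPM in wild type and at 36.6, 29.8, 30.45 and 31.3 CPM in Tnc-/-. Wild-type library 1 was the highest of all 7, and the remaining libraries lay close together. The log2 fold change was -0.11 (SE 0.20, 95% interval -0.56 to 0.34; edgeR, adjusted p = 0.707).

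The order of the genes was read from levels per kb of exon (GENCODE M21 exon lengths), as means of wild type and Tnc-/-. Ptgis stood first at 44.995 and 45.6 CPM per kb and Hpgd second at 20.5 and 19.0. Alox5 (6.65 and 10.1), Ptgs1 (4.94 and 8.25), Alox5ap (5.68 and 6.94), Ptges (4.94 and 4.302) and Alox15 (2.93 and 3.44) followed, with neighbours whose ranges over libraries overlapped. Ptgs2 was lower, at 1.22 and 1.15 CPM per kb, under Alox15 in all 7 libraries. Ltc4s (0.497 and 0.307) and Ptgds (0.249 and 0.239), as counted, stood last and overlapped each other. As counted at 2 weeks after repair, the transcripts of the prostacyclin and inactivating enzymes were therefore the most abundant of the 10. Inducible cyclooxygenase was among the least abundant, above only Ltc4s and Ptgds, whose places are uncertain because their low counts are not read as low expression.

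Summed markers of platelets and megakaryocytes, neutrophils and eosinophils lay apart between the genotypes, whereas those of macrophages and mast cells, which also carry lipoxygenases, overlapped. The 7 platelet and megakaryocyte markers summed to 486, 225 and 304 CPM in wild type and 517 to 910 CPM in Tnc-/-, with 4 of 6 tested genes called higher and Gp1bb near 0. Ptgs1 stood at 45.1, 72.2 and 63.8 CPM per 1000 CPM of that sum in wild type and at 42.2 to 51.8 in Tnc-/-. The 10 neutrophil markers summed to 4821, 2354 and 2543 CPM in wild type and 5332 to 8988 CPM in Tnc-/-, with 7 of 10 called higher. Alox5 stood at 6.07, 11.2 and 10.3 CPM per 1000 CPM of the neutrophil sum in wild type and at 5.58 to 6.57 in Tnc-/-. In these ratios of Ptgs1 and Alox5, wild-type library 1 was within the range of the Tnc-/- libraries, and wild-type libraries 2 and 3 were above it. Alox5ap ran otherwise, at 2.92, 1.81 and 2.32 CPM per 1000 CPM of the neutrophil sum in wild type and 1.12 to 1.82 in Tnc-/-, so that library 1 was the farthest from Tnc-/-.

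**Figure D2:**
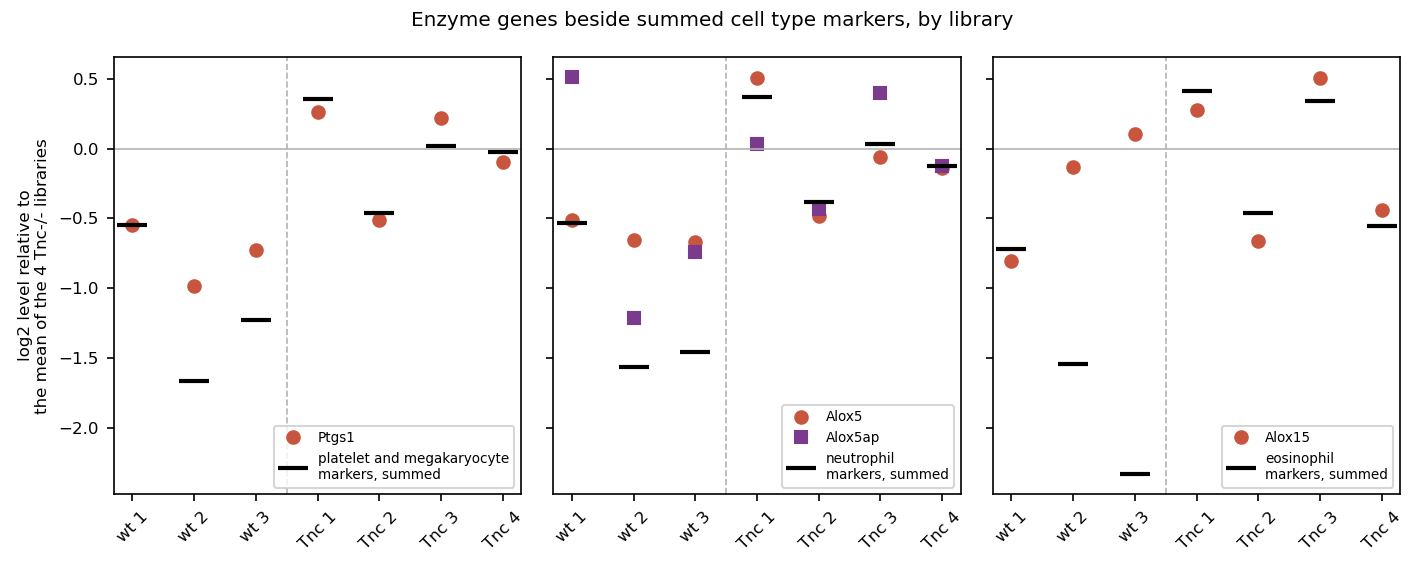
Level of Ptgs1, Alox5, Alox5ap and Alox15 in each library (coloured symbols) beside the summed level of platelet and megakaryocyte, neutrophil and eosinophil markers (black bars), as log2 relative to the mean of the 4 Tnc-/- libraries; wt is wild type, and the dashed line parts the genotypes. The 3 marker sums are lower in every wild-type library than in any Tnc-/- library, and in wild-type libraries 2 and 3 Alox15 lies above the eosinophil sum.

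The 7 eosinophil markers also lay apart, at 38.9 to 119 CPM in wild type and 133 to 260.5 CPM in Tnc-/-. Of 6 tested genes, 2 were called higher and 1 lower, and Ear1 was listed at 0. Prg2, called higher, made up 65.6% of the eosinophil sum. Alox15 ranged from 40.5 to 232 CPM per 1000 CPM of that sum in wild type and from 37.6 to 48.5 in Tnc-/-. Sums overlapped between the genotypes for 8 macrophage markers (585 to 1023 and 884 to 1083 CPM) and 8 mast cell markers (53.1 to 79.3 and 50.7 to 69.0 CPM). Kit made up 44.6% of the mast cell sum, at 18.1, 49.4 and 38.3 CPM in wild type and 15.6 to 26.4 CPM in Tnc-/-. None of the 7 tested mast cell markers was called. Sums overlapped as well for 7 endothelial markers (604 to 729 and 601 to 691 CPM, with Vwf called higher, Tek and Emcn lower). The same held for 7 smooth muscle markers (1357 to 2137 and 1818 to 2559 CPM, 88.1% of it Des, which skeletal muscle also uses). They overlapped too for 8 fibroblast and synovium markers (21950 to 33368 and 22546 to 39168 CPM; Pi16 called higher, Lum lower). The 7 epidermis markers summed to no more than 10.6 CPM in any library, and Dsg3, with 29, 149 and 111 counts in wild type and 0 in every Tnc-/- library, was called lower. The part of these cells in the levels of the enzyme genes was not tested.

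The rest of the pathway was taken from lists of 45 further genes of arachidonic acid release, synthesis, transport, inactivation and reception. Of their 46 identifiers, 37 passed the filter and 8 were called, 3 higher (Mgll, Ptges2 and Ptgir) and 5 lower (Pla2g10, Ptges3, Aloxe3, Ggt1 and Ptger3) in Tnc-/-. That is 21.6%, beside 29.0% of all genes tested, and the median log2 fold change was 0.094. The groups did not overlap in 13 of the 37, against 35.1% of all genes. None of the 8 genes of transport and inactivation and none of the 4 leukotriene receptor genes was called (edgeR) at an adjusted p under 0.05; at an unadjusted p under 0.05 there were 2 and 1. DESeq2 called 0 and 1 (Cysltr2), limma voom called 0 in each list, and edgeR with library totals called 1 (Ptgr2) and 0.

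Mgll encodes monoacylglycerol lipase, which frees arachidonic acid from the endocannabinoid 2-arachidonoylglycerol. It was at 91.1, 90.2 and 81.5 CPM in wild type and at 136, 137, 150.0 and 116 CPM in Tnc-/-. The groups lay well apart, and the gene rose by 0.62 on the log2 scale (SE 0.13; edgeR, adjusted p = 0.0105). The call held in each of the 7 fits that left out 1 library (0.56 to 0.74). Of the 17 alternatives it was lost with DESeq2 and Bonferroni adjustment, with the receptor genes as a covariate, and with wild-type libraries 2 and 3 left out (0.56, edgeR adjusted p = 0.0925). Fat uses Mgll too, and the fat marker Adipoq was called higher by a like amount (log2 fold change 0.63, SE 0.21; edgeR, adjusted p = 0.0491), at 36.0 to 41.3 CPM in wild type and 39.1 to 72.2 CPM in Tnc-/-. Its part in the level of Mgll was not tested.

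Among the prostaglandin E synthases beside Ptges, Ptges2, a membrane-bound form, was at 37.4, 25.9 and 21.5 CPM in wild type and at 37.0, 45.5, 44.5 and 49.0 CPM in Tnc-/-. It was called higher with overlapping groups (log2 fold change 0.64, SE 0.21; edgeR, adjusted p = 0.0465). Ptges3, a cytosolic form also known as the chaperone p23, was at 110, 116 and 113 CPM in wild type and at 88.0, 87.2, 90.9 and 78.8 CPM in Tnc-/-, and fell by 0.39 on the log2 scale (SE 0.11; edgeR, adjusted p = 0.0279). The Ptges2 and Ptges3 calls were each lost on leaving out any 1 library other than wild-type library 1, with edgeR adjusted p up to 0.151 and 0.0781. Without wild-type libraries 2 and 3 the log2 fold change was 0.23 for Ptges2 and -0.36 for Ptges3.

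Of 9 prostanoid receptor genes 5 were tested, of which 1 was called higher, 1 lower and 3 not. The share called was 40.0% of these few genes, beside 29.0% of all genes tested. Ptgir, the prostacyclin receptor, was at 14.4, 7.51 and 10.6 CPM in wild type and at 19.3, 19.1, 19.4 and 18.9 CPM in Tnc-/-. It rose by 0.82 on the log2 scale (SE 0.24; edgeR, adjusted p = 0.0358), while its ligand's synthase, Ptgis, had a fold change near 0. Ptger3, an inhibitory receptor for prostaglandin E, was at 14.3, 30.8 and 21.9 CPM in wild type and at 10.2, 9.80, 12.3 and 10.1 CPM in Tnc-/-, and fell by 1.07 on the log2 scale (SE 0.27; edgeR, adjusted p = 0.0198). Without wild-type libraries 2 and 3 the log2 fold change was 0.40 for Ptgir and -0.43 for Ptger3 (edgeR, adjusted p = 0.244 and 0.280). The Ptgir call was lost without any 1 library other than wild-type library 1, and the Ptger3 call without any other than wild-type library 1 or Tnc-/- library 3.

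The remaining falls were in genes with high levels in wild-type libraries 2 and 3. Pla2g10, a secreted phospholipase, was at 0.537, 12.1 and 4.25 CPM in wild type and 0.0740 to 0.366 CPM in Tnc-/-. Ggt1, which trims cysteinyl leukotrienes, was at 1.02, 14.2 and 6.56 CPM in wild type and 0.314 to 0.728 CPM in Tnc-/-. Aloxe3, an epidermal lipoxygenase, was at 1.29, 11.5 and 12.8 CPM in wild type and 0.629 to 1.46 CPM in Tnc-/-. Their log2 fold changes, from genes of few counts in Tnc-/-, were -4.65, -3.83 and -3.08 (edgeR, adjusted p = 0.0123, 0.0118 and 0.0178). Without wild-type libraries 2 and 3 they were -1.29, -1.02 and -0.38 (edgeR, adjusted p = 0.532, 0.471 and 0.765). With the summed receptor genes as a covariate, Pla2g10 was at -0.023 and the direction turned for Ggt1 (0.10) and Aloxe3 (0.53), with edgeR adjusted p = 0.987, 0.965 and 0.777. The receptor sum was higher in every wild-type library than in any Tnc-/- library, so in that fit it and the genotype cannot be fully told apart. Leaving out 1 library, Ggt1 kept its call each time, Pla2g10 lost it without wild-type library 2 (-3.41, edgeR adjusted p = 0.0501), and Aloxe3 kept it only without wild-type library 1 or Tnc-/- library 3.

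**Figure D3:**
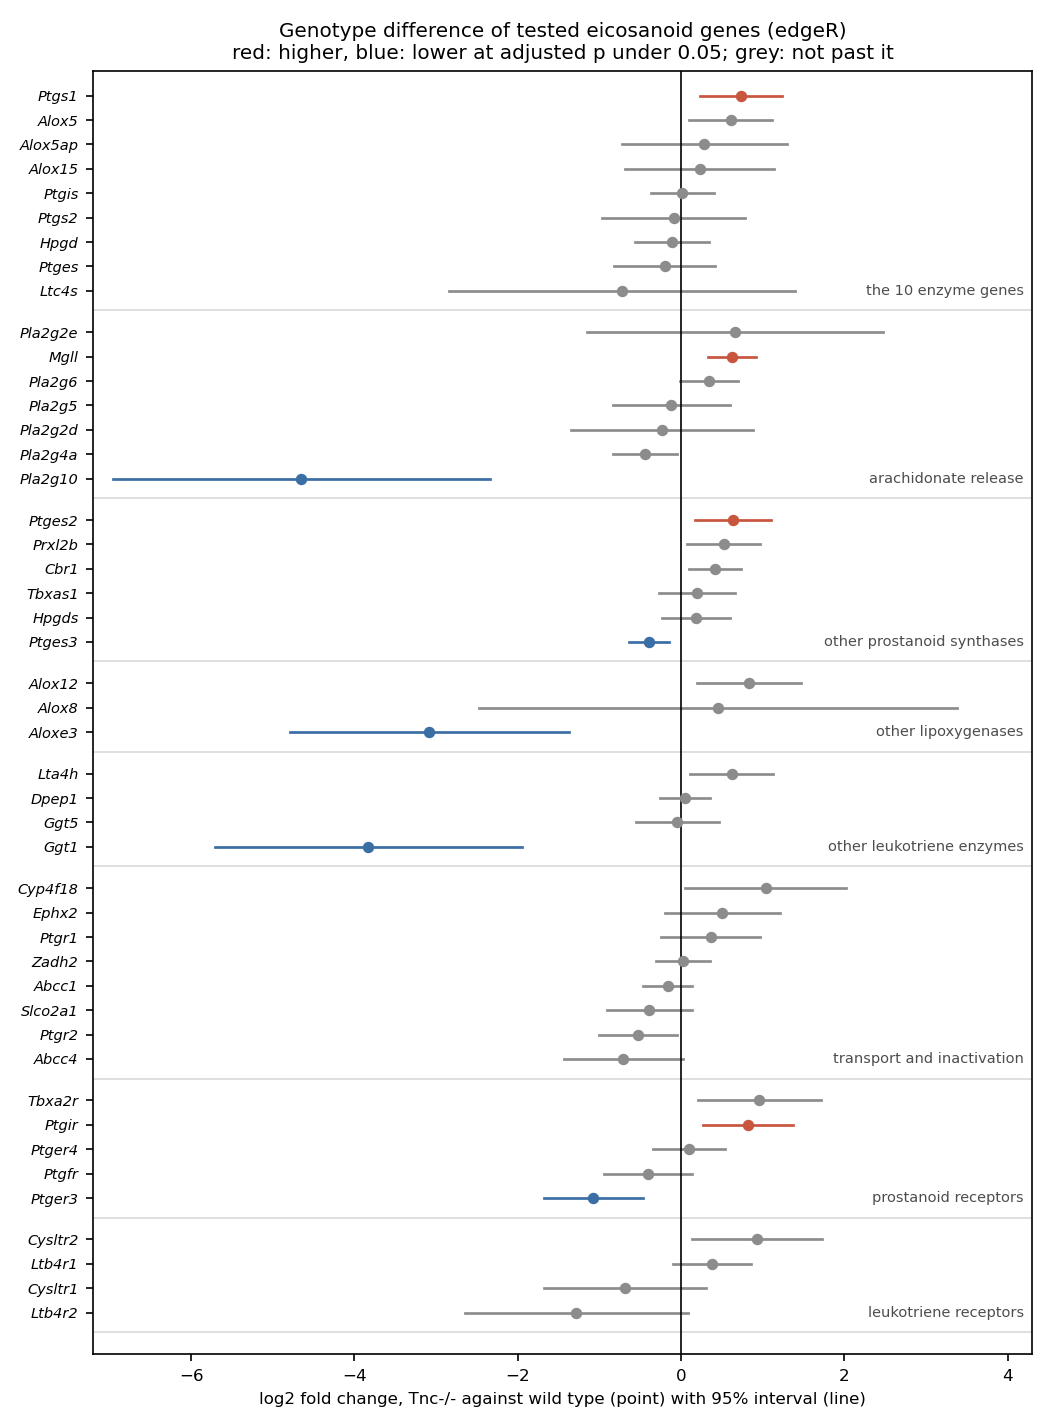
Log2 fold change of Tnc-/- against wild type (x axis; point, with the 95% interval as a line) for the 9 tested enzyme genes and the 37 further tested pathway genes, grouped by role. Red and blue mark genes higher and lower at an adjusted p under 0.05, and grey marks the others; among the enzyme genes the intervals of Ptgs1 (0.24 to 1.24) and Alox5 (0.098 to 1.12) lie wholly above 0.

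Pathway genes near the threshold were chosen after their values were seen. Cbr1, a carbonyl reductase that can convert prostaglandin E, had a log2 fold change of 0.42 (edgeR, adjusted p = 0.0516), and Prxl2b, a prostaglandin F synthase, had 0.52 (edgeR, adjusted p = 0.0793). Alox12, the platelet lipoxygenase, had a log2 fold change of 0.83 (edgeR, adjusted p = 0.0532). Tbxa2r, the thromboxane receptor, had 0.96 (adjusted p = 0.0577), Lta4h, the leukotriene B synthase, 0.62 (adjusted p = 0.0652), and Cysltr2, a cysteinyl leukotriene receptor, 0.94 (edgeR, adjusted p = 0.0747). Negative values were next in order of p, for Pla2g4a, the cytosolic phospholipase that releases arachidonic acid (-0.45, edgeR adjusted p = 0.0829), and Ptgr2, a prostaglandin reductase (-0.52, edgeR adjusted p = 0.0918). Tbxas1, the thromboxane synthase of platelets and macrophages, overlapped between the genotypes at 29.2 to 41.2 and 32.6 to 51.4 CPM. Akr1b3, Dpep2, Ptger1 and Ptger2 were listed at 0 in all 7 libraries, which allows at most 0.111 to 0.199 CPM per library by counting error. Akr1b3 is aldose reductase, an enzyme of most tissues, so a 0 in these files is not read as absence of expression. Alox12b was listed at 0 in all Tnc-/- libraries and had 2, 17 and 0 counts in wild type.

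The genes whose log2 levels over the 7 libraries were most like those of each enzyme gene were listed as a description. They were Polr3e (Pearson r = 0.985) and Cks2 (0.984) for Ptgs1, and Ccne1 (0.979) and Art4 (0.9745) for Alox5. For Ptgs2 they were Ctdspl (0.944) and Dglucy (0.937), for Ptges Gstz1 (0.960) and Aspg (0.959), and for Ptgis Cilp2 (0.934) and Ndrg4 (0.931). For Alox5ap they were Utp15 (0.985) and Niban1 (0.983), for Alox15 Rab11fip1 (0.938) and Stk24 (0.902), for Hpgd Armc1 (0.980) and Chmp3 (0.979), and for Ltc4s Rab12 (0.959) and Xpr1 (0.952). The 7 libraries share the split by genotype and by receptor-gene reads, and no p is given.

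**Figure D4:**
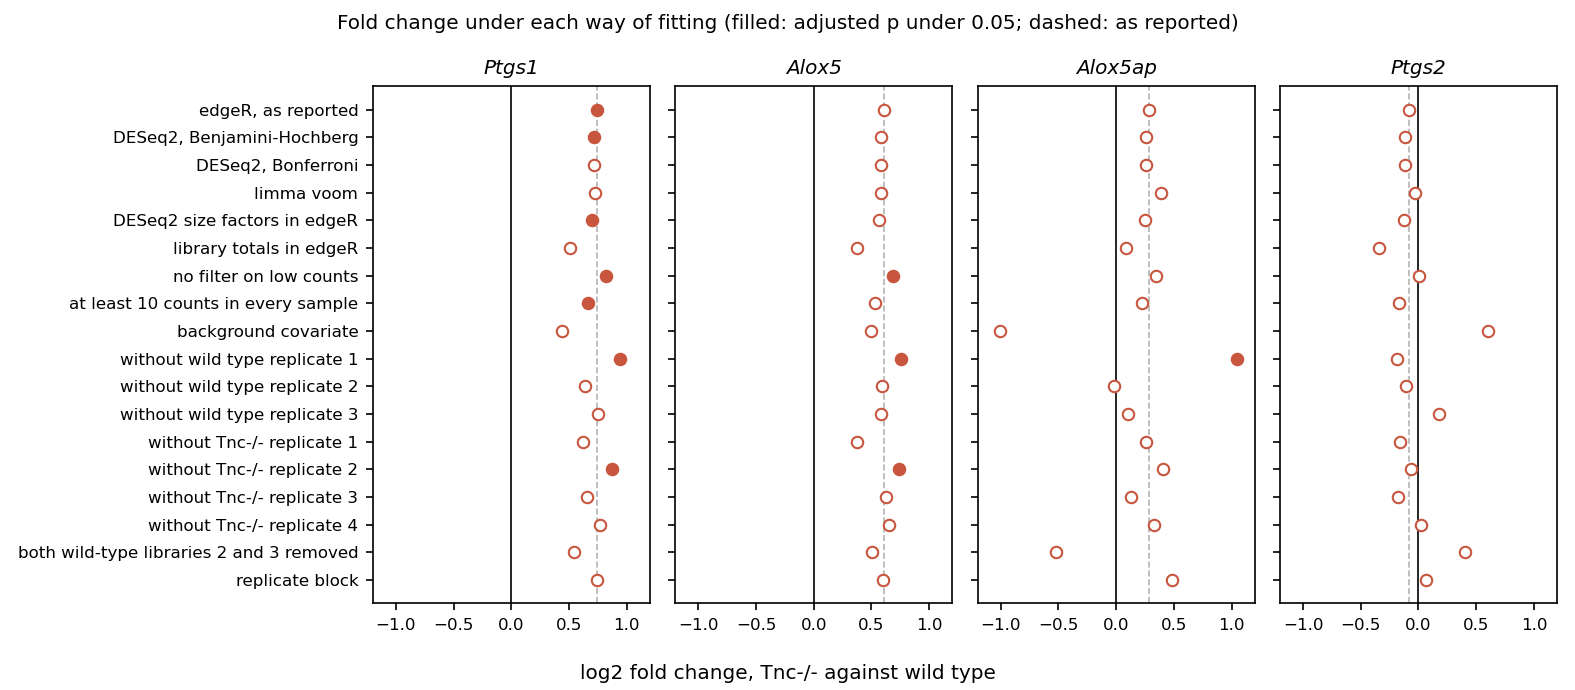
Log2 fold change (x axis) of Ptgs1, Alox5, Alox5ap and Ptgs2 as reported and under 17 other ways of fitting (y axis); filled circles have an adjusted p under 0.05 and the dashed line is the reported value. Ptgs1 and Alox5 stay above 0 in all 17, at 0.44 to 0.94 and 0.37 to 0.76, while Alox5ap runs from -1.01 to 1.05 and Ptgs2 from -0.35 to 0.60.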

How the data were processed

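Raw read counts per gene were deposited, 1 file per library, and converted to CPM here. FastQC 0.11.9, HISAT2 2.2.1, HTSeq 2.0.2, DESeq2 1.38.3 and the build GRCm39 are named, without role or order, per the submitters' processing notes; annotation release, strand setting and overlap mode are not given in the sources used here. Per the labels' protocols, libraries used poly(A) capture and a NEBNext Ultra kit. Rows naming no gene held 30.1 to 32.7% of the reads listed for Tnc-/- (ambiguous reads 11.4 to 11.6%), were absent from the wild-type files and were left out. Every column of values was mapped to a library (0 were not).

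The 56854 identifiers shared by all files entered edgeR 4.0.16 (R 4.3.3), with filterByExpr, TMM scaling, robust quasi-likelihood F test with genotype as its term, Benjamini-Hochberg adjustment over 17791 genes, threshold 0.05. SE is the log2 fold change over the square root of F. The procedure was tested on simulated data with 200 changed genes, the same relative spread for every gene and no library standing apart. That test does not cover data in which wild-type libraries 2 and 3 stand apart. P-values measure the spread between mice. Counting intervals and floors (3 counts) cover counting error only. Replicate numbers did not pair the mice. Alternatives were DESeq2 1.42.0, limma 3.58.1 voom, other scalings and filters, the summed receptor genes as a covariate, left-out libraries and a replicate block. Gene overlaps, spans and exon lengths came from GENCODE M21 (GRCm38). Genes named are the 10, the pathway genes called or at 0 in a group, and the 2 genes most like each; pathway genes named beside these were chosen after their values were seen; the 10 genes and the lists were chosen with earlier results of these data known.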

Additional observations from a re-analysis of the deposited data

Results flagged for a closer look

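In the 4 Tnc-/- libraries, 60 levels of genes and marker sums were searched for a library far from the others by Dixon's test, and 4 stood apart, where chance gives about 1 in 20. Tbxas1 was at 51.4 CPM in Tnc-/- library 1, against 32.6 to 35.6 CPM in the others. Slco2a1, the prostaglandin transporter, was at 17.5 CPM in the same library, against 29.8 to 30.6 CPM. Prxl2b, a prostaglandin F synthase, was at 49.97 CPM in library 2, against 42.8 to 43.9 CPM. Ptger3 was at 12.3 CPM in library 3, against 9.80 to 10.2 CPM. None of the 10 enzyme genes was among the 4.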

How the results depend on the processing

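Ptgs1 kept its direction in all 17 alternatives and its call in 6 of them; Alox5 kept its direction in all 17 and was called in 3. The number of enzyme genes called was 0 with DESeq2 and Bonferroni adjustment, limma voom, library totals, the receptor covariate, wild-type libraries 2 and 3 left out or the replicate block, 2 with no filter on low counts, and 0 to 3 on leaving out 1 library. For the other pathway genes it was 14 with DESeq2, 0 with Bonferroni adjustment, 1 with limma voom, 5 with at least 10 counts in every sample, 1 with the receptor covariate, 0 without wild-type libraries 2 and 3, 4 with the replicate block, and 3 to 23 on leaving out 1, where 23 is without wild-type library 1, 5 without Tnc-/- library 3 and 3 without any of the others. Over all genes, 5159 as reported, it was 9423 with DESeq2, 1890 with Bonferroni adjustment, 1004 with limma voom, 399 with the receptor covariate, 825 without wild-type libraries 2 and 3, 1932 with the replicate block, and 2229 (without wild-type library 3) to 14113 (without wild-type library 1) on leaving out 1. The replicate number is only a name here: correlations of same-numbered deviations were -0.0053, 0.102 and -0.0055.

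Several genes changed sign, among them 2 of those called, Aloxe3 and Ggt1. Ptgs2 was at 0.0025 with no filter, 0.60 with the receptor covariate, 0.40 without wild-type libraries 2 and 3, 0.066 with the replicate block and -0.19 to 0.18 on leaving out 1 library. Ptges was at 0.47 with the covariate, 0.21 without wild-type libraries 2 and 3 and -0.32 to 0.16 on leaving out 1. Ptgis was at -0.011 with DESeq2 and either adjustment, -0.0011 with limma voom, -0.024 with DESeq2 size factors, -0.23 with library totals, -0.062 with at least 10 counts in every sample, -0.13 with the covariate, -0.046 without wild-type libraries 2 and 3, -0.13 with the replicate block and -0.12 to 0.14 on leaving out 1. Alox5ap was at -1.01 with the covariate, -0.52 without wild-type libraries 2 and 3 and -0.016 to 1.05 on leaving out 1. Alox15 was at -0.029 with library totals, and Hpgd ran from -0.26 to 0.25 on leaving out 1. With the covariate, which itself separates the genotypes, the falls of Aloxe3 and Ggt1 turned to 0.53 and 0.10. The cause of these shifts was not tested. Ltc4s and Ptgds had at most 15 counts in a library, and whether depth or the counting of shared reads limits them was not tested; Ltc4s passed the filter in 3 of the 7 fits that left out 1.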
